A study of Mus musculus with 11 samples.

Results

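The 9 genes described here encode proteins of lipid-associated macrophages and of the fusion of macrophages into multinucleated cells: Trem2, Tyrobp, Cd9, Cd63, Gpnmb, Spp1, Lgals3, Itgax and Dcstamp. They were chosen by gene symbol for these roles, with earlier results of these data known. Of the 9, 8 had values among the 12787 genes of the table. Spp1, which encodes the secreted phosphoprotein osteopontin, was not analysed here. All 8 measured genes fell in gonadal white adipose tissue (WAT) of high fat diet (HFD)-fed mice given iodomethylcholine (IMC), and in each of them every IMC-treated mouse was below every control mouse. The fall ran from 34.4% for Lgals3 to 56.9% for Dcstamp. Over all 12787 genes, 21.0% were lower with IMC (limma, adjusted p under 0.05), and for 10.5% every IMC-treated mouse was below every control.

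In obese adipose tissue, macrophages gather around dying adipocytes in crown-like structures, take up the released lipid and digest it in enlarged lysosomes. Macrophages of this kind are known as lipid-associated macrophages. The surface receptor Trem2 binds lipids and signals through the adaptor Tyrobp, also called DAP12, and is required for much of the gene programme of these cells. Some macrophages fuse into multinucleated giant cells, as osteoclasts do in bone, and the membrane protein Dcstamp is needed for that fusion.

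Whole gonadal WAT of C57Bl6/J mice was studied by RNA sequencing, with 1 library from each of 11 mice. The labels name no engineered allele in either group, and both were fed a 60% HFD for 20 weeks before this tissue was collected. The 5 mice of the HFD group received vehicle, and the 6 mice of the HFD + IMC group received 0.06% w/w IMC, a small molecule that inactivates the bacterial enzyme that forms trimethylamine from choline in the gut. The submitters had dropped 1 further control library for its quality. The labels give neither age nor cage for these mice, and there was no lean or low fat diet group. The comparison asks how the expression of each gene in obese fat differed when the microbial enzyme was inhibited.

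Values are log2 CPM, the log2 of read counts per unit of sequencing depth after the libraries were scaled to the same upper quartile, so a difference of 1 is a doubling. The mice had between 22320022 and 25155366 reads on the listed genes, and all 11 libraries were used. Between groups, 2680 genes (21.0%) were lower and 2556 higher with IMC at the threshold used throughout, an adjusted p under 0.05 (limma with Benjamini-Hochberg adjustment over all 12787 genes), which together is 40.9% of the table. For 1349 genes (10.5%) all IMC-treated mice were below all controls. For 634 genes (4.96%) the log2 fold change was -0.5 or lower at that adjusted p, and the 8 genes were among these 634. The median log2 fold change was -0.73 over the 8 genes and -0.03 over all genes. In bulk tissue, fewer cells of a type and less RNA per cell cannot be told apart.

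Defining markers of adipocytes and macrophages were read in the same libraries. Of 10 adipocyte genes, 10 rose in the IMC-treated mice, with a median log2 fold change of 0.89, and their summed level was between 6570 and 9744 CPM in controls and between 14498 and 16640 CPM in IMC-treated mice. Adipoq, which encodes the adipocyte hormone adiponectin, rose by 1.18 (SE 0.15, adjusted p = 0.000103, limma). Of 14 pan-macrophage genes, 13 fell and 0 rose, with a median of -0.60, and their summed level was between 10952 and 13785 CPM in controls and between 6480 and 9686 CPM in IMC-treated mice. None of these markers was at 0, but this was no check of the tissue labels, since every gene of the table had at least 5 reads in every mouse. Macrophage marker levels thus fell as the 8 genes did, while adipocyte marker levels rose. The part of cell composition in the fall of the 8 genes was not tested.

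Sequence before a transcript start was read for the genes with an entry in a RefSeq promoter table (assembly GRCm38.p6), which matched 6 of the 8, namely Trem2, Cd9, Cd63, Gpnmb, Lgals3 and Itgax. The start is the one that the table uses, which for Itgax and Cd63 lies inside the outer ends of the gene printed for them here, so that the window of Itgax crosses the outer end and that of Cd63 lies within the gene. The 250 bases before that start were searched on both strands for TGANTCA, a looser pattern that includes TGAGTCA and TGACTCA, the letters bound by AP-1 factors. Also searched were the E-box forms CACGTG and CATGTG used by MITF and TFE factors, and GAGGAA, a core bound by the ETS factor PU.1. Only the 3 windows that held TGANTCA or an E-box form are shown, with all matched letters in capitals. The window of Trem2 is chr17:48346151-48346400 (plus strand), that of Itgax is chr7:128129300-128129549 (plus strand) and that of Cd9 is chr6:125494761-125495010 (minus strand).
Trem2: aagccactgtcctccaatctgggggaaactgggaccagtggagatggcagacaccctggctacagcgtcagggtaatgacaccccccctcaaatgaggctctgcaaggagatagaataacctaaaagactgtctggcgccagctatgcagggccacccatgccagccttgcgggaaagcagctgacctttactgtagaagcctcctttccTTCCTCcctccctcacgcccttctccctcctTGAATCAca
Itgax: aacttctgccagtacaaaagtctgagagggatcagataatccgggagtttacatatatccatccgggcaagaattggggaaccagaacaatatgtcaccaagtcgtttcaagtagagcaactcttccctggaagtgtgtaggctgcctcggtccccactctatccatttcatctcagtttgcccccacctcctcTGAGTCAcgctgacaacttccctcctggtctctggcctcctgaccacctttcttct
Cd9: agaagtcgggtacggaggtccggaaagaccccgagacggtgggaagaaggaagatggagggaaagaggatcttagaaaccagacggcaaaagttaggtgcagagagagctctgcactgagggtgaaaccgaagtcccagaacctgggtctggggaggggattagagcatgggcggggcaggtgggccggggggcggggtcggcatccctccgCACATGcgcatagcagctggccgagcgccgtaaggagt
TGANTCA stood 9 to 3 bases before the start of Trem2, as TGAATCA, and 56 to 50 bases before that of Itgax, as TGAGTCA. The pattern was thus in 2 of the 6 windows, against 6.75% of all 32851 promoters of the same length. Only the match of Itgax has the AP-1 letters. CATGTG was found on the opposite strand in 1 window, 38 to 33 bases before the start of Cd9, against 12.3% of all promoters. GAGGAA was found in 2 windows, those of Trem2 and Cd63, against 23.3%, and CACGTG in 0 windows, against 6.02%. The windows of Gpnmb and Lgals3 held none of these letters. A match of letters is a description of the sequence and no evidence of binding.

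**Figure D1:**
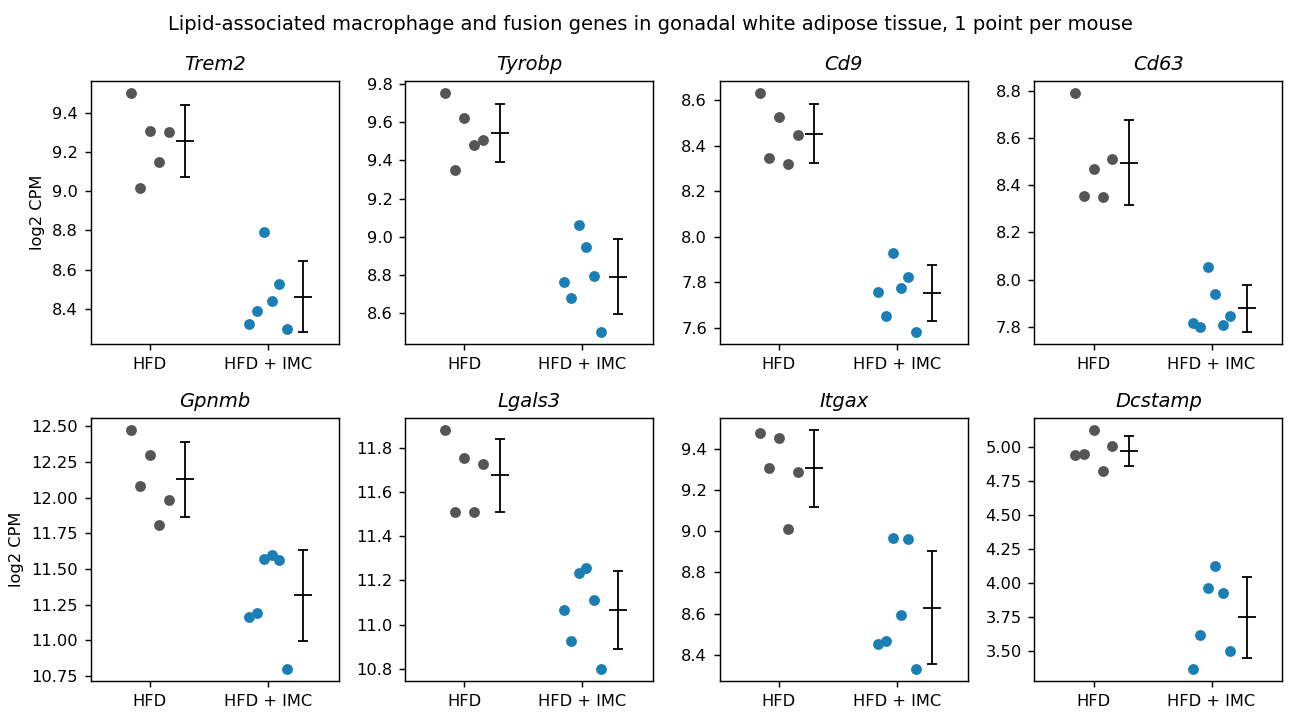
Expression of the 8 genes in gonadal WAT, in log2 CPM on the vertical axis, with 1 point per mouse for 5 HFD and 6 HFD + IMC mice; the black mark and bar beside each group are its mean and SD. In every panel the lowest HFD mouse lies above the highest HFD + IMC mouse, by 0.04 for Itgax and by 0.69 for Dcstamp.

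Trem2 (chr17:48346401-48352276 in GRCm38.p6), the lipid-sensing receptor, was at 9.50, 9.02, 9.31, 9.15 and 9.30 log2 CPM in HFD mice 1 to 5. In the HFD + IMC group it ran from 8.30 to 8.79, with a median of 8.42. Control mouse 1 was the highest and IMC-treated mouse 6 the lowest, and 0.22 log2 units separated the groups. Trem2 fell by 0.79 on the log2 scale (SE 0.10, 95% CI -1.01 to -0.58, adjusted p = 7.93e-05, limma), which is 42.3% lower. By size of fall it was number 129 of the 12787 genes.

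Tyrobp (chr7:30413782-30417582), the adaptor that carries the activating signal of Trem2 and of several other myeloid receptors, was at 9.75, 9.35, 9.62, 9.48 and 9.51 log2 CPM in HFD mice 1 to 5. IMC-treated mice ran from 8.50 to 9.06, with a median of 8.78, so the groups stood 0.29 apart. Its fall was 40.7%, or -0.75 as log2 fold change (SE 0.10, 95% CI -0.96 to -0.54, adjusted p = 0.000103, limma). Receptor and adaptor kept nearly the same distance within a mouse: Trem2 minus Tyrobp was -0.29 ± 0.06 log2 units in controls (SD, n = 5) and -0.33 ± 0.12 in IMC-treated mice (SD, n = 6), and the ranges of the groups overlapped.

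Cd9 (chr6:125460266-125494760) and Cd63 (chr10:128896231-128912822) encode tetraspanins, membrane-spanning proteins that organise other proteins at the cell surface and, for Cd63, in late endosomes and lysosomes. In HFD mice 1 to 5, Cd9 was at 8.63, 8.34, 8.52, 8.32 and 8.44 log2 CPM, and the IMC-treated mice ran from 7.58 to 7.93 with a median of 7.77. Cd63 was at 8.79, 8.35, 8.47, 8.35 and 8.51 log2 CPM in the same controls, and between 7.80 and 8.06 in IMC-treated mice with a median of 7.83. Both groups were tight for these genes, with SDs between 0.10 and 0.18, and neither gene had an overlap. Cd9 fell by 0.70 (SE 0.07, 95% CI -0.85 to -0.55, adjusted p = 3.50e-05, limma) and had the smallest SE of the 8 genes. Cd63 fell by 0.62 (SE 0.08, 95% CI -0.79 to -0.45, adjusted p = 9.39e-05, limma). In percent, Cd9 was 38.4% and Cd63 34.9% lower. Cd9 overlaps the genes Gm28809 and Gm26728, and since the strand setting of the count was not given, reads of these genes cannot be told apart from those of Cd9.

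Gpnmb (chr6:49036518-49058182), a membrane glycoprotein of lipid-loaded macrophages and a known target of MITF and TFE factors, was the most abundant of the 8 genes in log2 CPM, with 43266 to 126597 reads per mouse. It was at 12.48, 12.08, 12.30, 11.81 and 11.98 log2 CPM in HFD mice 1 to 5, and between 10.80 and 11.60 in IMC-treated mice with a median of 11.38. It also varied most among controls, where mouse 1 was 0.67 above mouse 4. Gpnmb fell by 0.82 (SE 0.16, 95% CI -1.17 to -0.46, adjusted p = 0.00174, limma), which is 43.2%. The size of its fall was thus close to that of Trem2, with a wider interval.

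Lgals3 (chr14:47373860-47386167) encodes galectin-3, a secreted lectin that binds galactose-bearing glycans and damaged lysosomes. HFD mice 1 to 5 had 11.88, 11.51, 11.75, 11.51 and 11.72 log2 CPM, against 10.80 to 11.26 in IMC-treated mice with a median of 11.09. A gap of 0.25 separated the groups. Lgals3 fell by 0.61 on the log2 scale (SE 0.11, 95% CI -0.84 to -0.38, adjusted p = 0.000731, limma), the smallest fall of the 8. Gpnmb minus Lgals3 was 0.46 ± 0.16 log2 units in controls (SD, n = 5) and 0.25 ± 0.17 in IMC-treated mice (SD, n = 6), and the groups overlapped.

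Itgax (chr7:128129526-128150657) encodes CD11c, the integrin chain that pairs with Itgb2 and marks pro-inflammatory macrophages and dendritic cells in obese fat. Its values were 9.48, 9.31, 9.45, 9.01 and 9.29 log2 CPM in HFD mice 1 to 5 and ran from 8.33 to 8.97, with a median of 8.53, in IMC-treated mice. Control mouse 4 came within 0.04 of the highest IMC-treated mouse, the narrowest gap of the 8 genes. Itgax fell by 0.68 (SE 0.13, 95% CI -0.95 to -0.41, adjusted p = 0.00105, limma), which is 37.6%. Itgb2, its partner, fell by 0.64 (SE 0.16, adjusted p = 0.00558, limma), and Itgax minus Itgb2 was -0.31 ± 0.16 log2 units in controls (SD, n = 5) against -0.35 ± 0.26 in IMC-treated mice (SD, n = 6), with overlap.

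Dcstamp (chr15:39745930-39760938), the fusion gene, was the rarest of the 8, with 237 to 830 reads per mouse, and fell most. In HFD mice 1 to 5 it was at 4.94, 4.94, 5.12, 4.82 and 5.00 log2 CPM, and in IMC-treated mice between 3.37 and 4.13 with a median of 3.77. Its control mice lay within 0.30 of each other, while the IMC-treated mice spread over 0.75. Dcstamp fell by 1.21 (SE 0.12, 95% CI -1.48 to -0.95, adjusted p = 3.50e-05, limma), which is 56.9%, and by size of fall it was number 24 of the 12787 genes. Ocstamp, a relative of Dcstamp that also takes part in osteoclast fusion, stood at -0.01 (log2 fold change, SE 0.16, adjusted p = 0.966, limma) at a mean of 1.10 log2 CPM in controls. Dcstamp minus Ocstamp was 3.86 ± 0.09 log2 units in controls (SD, n = 5) and 2.66 ± 0.37 in IMC-treated mice (SD, n = 6), and the groups did not overlap.

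**Figure D2:**
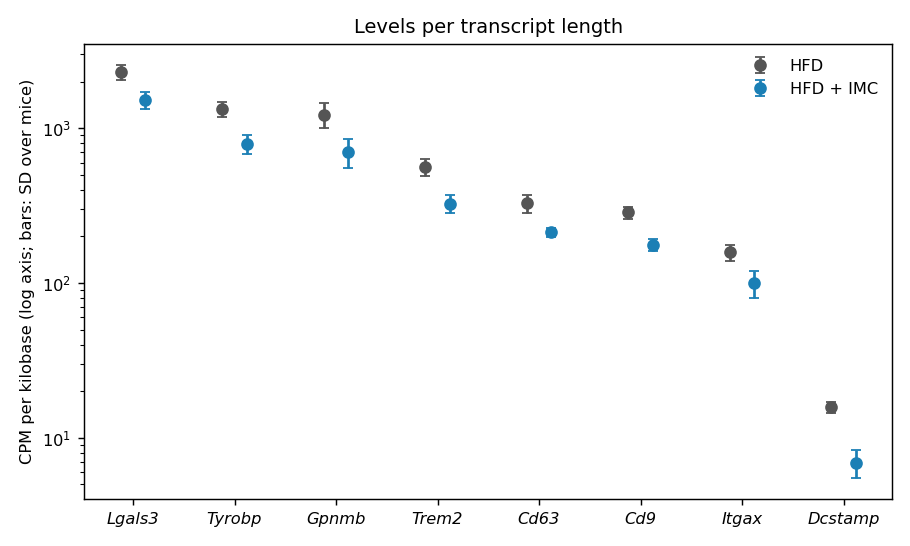
Levels of the 8 genes in CPM per kilobase of transcript on a log axis, as the mean and SD of 5 HFD and 6 HFD + IMC mice. The genes span from Lgals3 at 2316 to Dcstamp at 15.7 in the HFD group, and each is lower in the HFD + IMC group.

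Levels were compared between genes per length of the longest protein-coding transcript, or of the longest transcript where a gene had no protein-coding one. A length was known for 12343 of the 12787 genes. In controls Lgals3 was highest at 2316 ± 262 CPM per kilobase (SD, n = 5), rank 11 of those genes. Tyrobp at 1329 ± 141 and Gpnmb at 1227 ± 226 came next, and this pair did not differ beyond its spread in either group. Trem2 followed at 566 ± 71.7, and then Cd63 at 328 ± 43.1 and Cd9 at 286 ± 25.9, whose spreads met. Itgax was at 158 ± 19.6 and Dcstamp, at rank 4271, at 15.7 ± 1.20 CPM per kilobase. In the 6 IMC-treated mice the order was the same, from Lgals3 at 1521 ± 183 to Dcstamp at 6.86 ± 1.40 CPM per kilobase (SD).

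**Figure D3:**
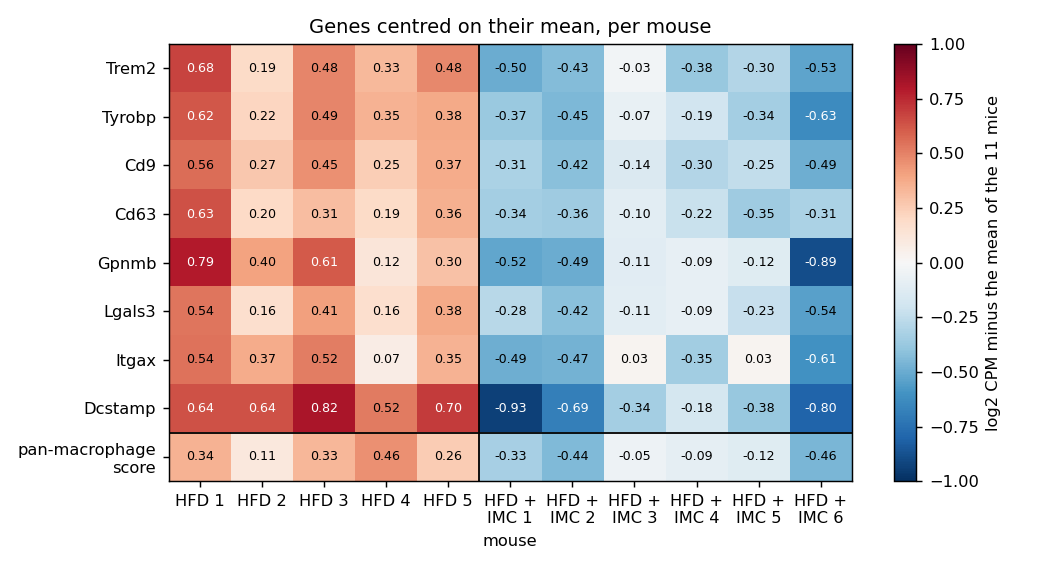
Each gene's log2 CPM minus its mean over the 11 mice (colour and printed value), with the 8 genes and the pan-macrophage score in rows and the mice in columns. HFD mouse 1 has the highest value of its group for 7 of the 8 genes, and HFD mouse 4, lowest for 5 of them, has the highest pan-macrophage score, 0.46.

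The order of the mice within a group was much alike from gene to gene. Control mouse 1 was highest for 7 of the 8 genes and control mouse 3 for the other, Dcstamp, while control mouse 4 was lowest for 5 and control mouse 2 for 3. Among IMC-treated mice, mouse 3 was highest for 5 genes and mouse 4 for 3, and mouse 6 was lowest for 6. The pan-macrophage score, the mean over the 14 markers of log2 CPM centred per gene, did not follow this order in controls: mouse 4 was highest at 0.46 and mouse 2 lowest at 0.11. In IMC-treated mice the score ran from -0.46 in mouse 6 to -0.05 in mouse 3, as for most of the 8 genes. Between the groups the score was 0.30 ± 0.13 (SD, n = 5) and -0.25 ± 0.18 (SD, n = 6), a difference of -0.55 with no overlap (p = 0.00216 by an exact two-sided permutation test, which can go no lower with 462 assignments of the mice, and 0.00722 after adjustment over 10 marker lists).

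Genes with the most similar pattern over the 11 mice were found by the root mean square difference of log2 CPM after centring each gene, with no test. For Lgals3 the nearest were Cd68, a lysosomal glycoprotein of macrophages, at 0.0427, Capg, an actin-capping protein, at 0.0477, and Fxyd5 at 0.0640. Kcnn4, a calcium-activated potassium channel, was nearest to Cd9 at 0.0308. Trem2 and Tyrobp were near each other at 0.0873, and Aprt, a purine salvage enzyme, was among the 3 nearest of Trem2, Tyrobp and Cd9. For Cd63 the nearest gene was Atpif1 at 0.0634, for Gpnmb Gpr137b at 0.108, and for Itgax Arhgap22 at 0.0926. Dcstamp had its nearest gene, Vsig8, at 0.165, and its distance to the other 7 genes was between 0.266 for Gpnmb and 0.361 for Cd63. The median over all genes was between 0.357 and 0.648, depending on the gene compared.

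**Figure D4:**
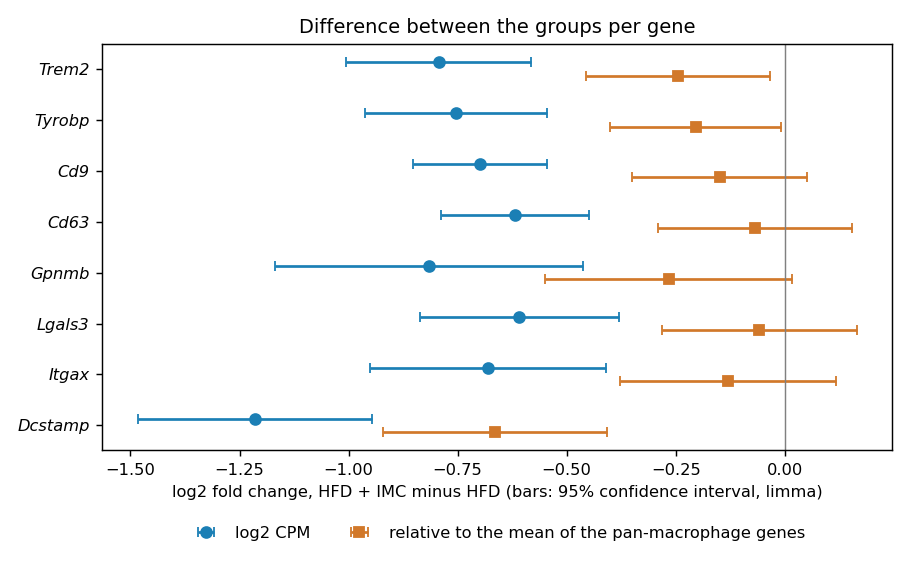
Difference of HFD + IMC minus HFD per gene on the log2 scale, with 95% confidence intervals from limma, as log2 CPM (circles) and after subtracting each mouse's mean of 14 pan-macrophage genes (squares). All 8 circles lie between -1.21 and -0.61 with intervals below 0, whereas among the squares Dcstamp stands at -0.66 and the other 7 lie between -0.27 and -0.06.

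To ask whether these genes differed between groups by more than macrophage markers in general, the mean log2 CPM of the 14 pan-macrophage genes in a mouse was subtracted from every gene of that mouse, and all genes were fitted again. On this scale 63 genes (0.493%) were lower and 10308 (80.6%) higher in IMC-treated mice. Because most genes passed, the adjustment raised p-values near the threshold only a little, from 0.0252 to 0.0323 for Trem2 (limma). Small p-values rose more, from 2.99e-05 to 0.000127 for Dcstamp (limma). Dcstamp remained lower, by 0.66 on the log2 scale relative to these markers (SE 0.12, 95% CI -0.92 to -0.41, adjusted p = 0.000127, limma). Trem2 was also lower, with a relative log2 fold change of -0.24 (95% CI -0.46 to -0.03, adjusted p = 0.0323). Its call was lost without HFD mouse 1, 3 or 5 or without IMC-treated mouse 1, 4 or 5, with adjusted p-values between 0.0588 and 0.107 for Trem2.

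The other 6 genes did not pass on that scale. Relative log2 fold changes were -0.27 for Gpnmb (95% CI -0.55 to 0.02, adjusted p = 0.0764), -0.20 for Tyrobp (95% CI -0.40 to -0.01, adjusted p = 0.0516), -0.15 for Cd9 (95% CI -0.35 to 0.05, adjusted p = 0.155) and -0.13 for Itgax (95% CI -0.38 to 0.12, adjusted p = 0.310). They were closest to 0 for Cd63, -0.07 (95% CI -0.29 to 0.15, adjusted p = 0.549), and Lgals3, -0.06 (95% CI -0.28 to 0.16, adjusted p = 0.610). Except for Tyrobp, whose interval lay below 0, these intervals leave room for differences from the markers in either direction. Without HFD mouse 4, the control with the highest marker score, 6 of the 8 genes passed: Gpnmb at -0.39 (adjusted p = 0.00723), Tyrobp at -0.26 (adjusted p = 0.0147), Cd9 at -0.22 (adjusted p = 0.0287) and Itgax at -0.24 (adjusted p = 0.0335) joined Trem2 and Dcstamp. Tyrobp also passed without IMC-treated mouse 3, at -0.22 (adjusted p = 0.0482, limma), and with all 11 mice when genes under a mean of 2 log2 CPM were left out, at -0.20 (adjusted p = 0.0489, limma). Over the 18 alternative settings of this comparison, these included, between 42 and 88 genes of the whole table were lower.

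**Figure D5:**
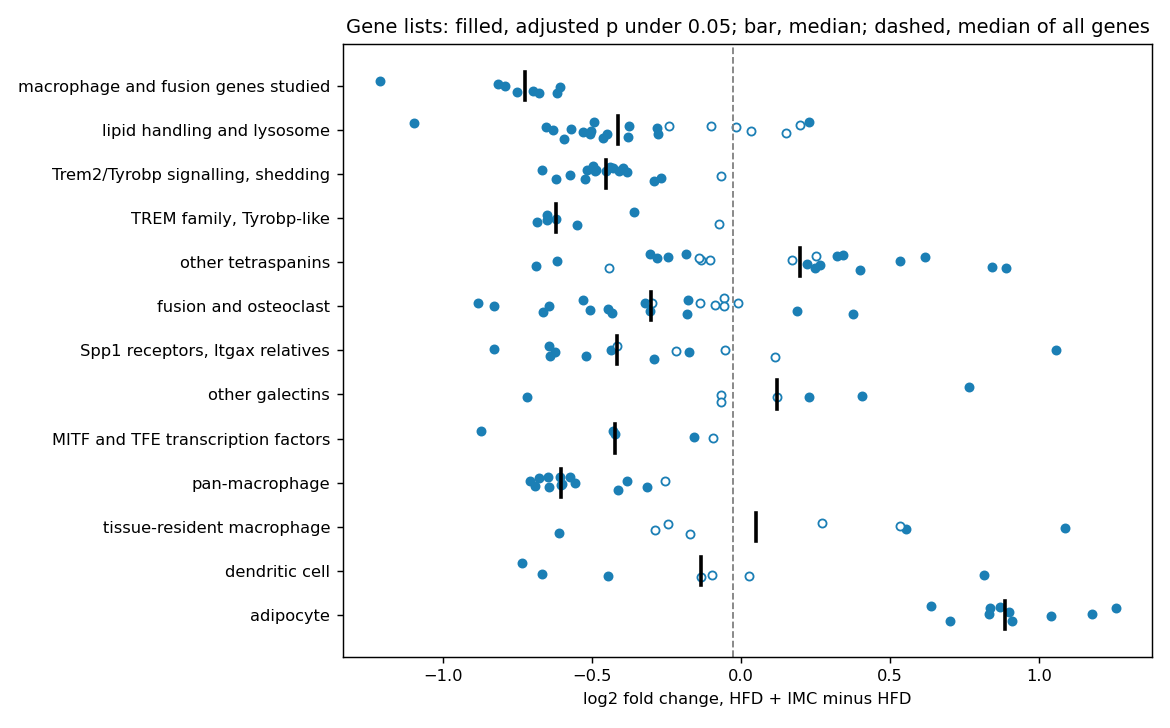
Log2 fold change (HFD + IMC minus HFD, horizontal axis) of each gene in 13 lists, with 1 point per gene, filled where the adjusted p was under 0.05; black bars are list medians and the dashed line is the median of all genes, -0.03. The 8 genes lie between -1.21 and -0.61, the pan-macrophage list has a median of -0.60 and the adipocyte list a median of 0.89.

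Downstream of Trem2 and Tyrobp, 16 of 17 genes of signalling and receptor shedding fell and 0 rose, with a median log2 fold change of -0.45. Among them were Syk, the kinase recruited by Tyrobp (log2 fold change -0.52, SE 0.13, adjusted p = 0.00551), the adaptors Blnk (-0.45, SE 0.07, adjusted p = 0.000293) and Grb2 (-0.27, SE 0.05, adjusted p = 0.000615), and the Src family kinase Lyn (-0.40, SE 0.07, adjusted p = 0.000554, all limma). Of the 2 proteases that shed Trem2 from the surface, Adam17 fell by 0.29 (adjusted p = 0.0142), and Adam10 did not pass, at -0.07 (SE 0.06, adjusted p = 0.411, limma). Of 12 genes of the TREM family or of receptors and adaptors like Tyrobp, 7 were measured, 6 fell and 0 rose, with a median of -0.62. Fcer1g, the common gamma chain of Fc receptors, fell by 0.65, Hcst, the adaptor DAP10, by 0.62, and Cd300ld, which belongs to a family of similar receptors, by 0.55. Klrk1 did not pass, at -0.08 (SE 0.21, adjusted p = 0.799, limma). Relative to the pan-macrophage genes, Syk (0.03), Blnk (0.09) and Lyn (0.15) did not pass. On that scale Grb2 (0.28, adjusted p = 0.0121), Adam17 (0.26, adjusted p = 0.0136) and Adam10 (0.48, adjusted p = 0.000253, limma) were higher, as were 80.6% of all genes.

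Lipid handling and lysosomal genes of these macrophages were all measured, and 15 of 22 fell, 1 rose and 6 did not pass, with a median of -0.42. Mmp12, macrophage elastase, had the largest fall of the list, -1.10 (SE 0.26, adjusted p = 0.00503), with groups that overlapped. Capg fell by 0.63, the lysosomal enzyme gene Hexa by 0.45, lysosomal acid lipase Lipa by 0.51 and apolipoprotein Apoe by 0.38. Lgals1, which encodes galectin-1, rose by 0.23 (SE 0.07, adjusted p = 0.0214, limma), a call lost without HFD mouse 4 (adjusted p = 0.0550). Relative to the pan-macrophage genes, Mmp12 was lower, at -0.55 (adjusted p = 0.0262, limma). Capg (-0.08), Hexa (0.10), Lipa (0.04) and Apoe (0.17) did not pass on that scale. Between groups, the 6 genes that did not pass were Npc2 (0.20), Lpl (0.15), Cd36 (0.03), Fabp5 (-0.02), Anxa2 (-0.10) and Plin2 (-0.24). Several genes of this list, such as Lpl and Cd36, are also expressed by adipocytes. A list of 5 genes held the MITF and TFE transcription factors, which drive lysosomal genes, and their regulator Flcn. Of these, 4 fell and 0 rose with a median of -0.42, including Tfeb (-0.42, SE 0.07, adjusted p = 0.000351), Mitf (-0.43, SE 0.10, adjusted p = 0.00391) and Tfec (-0.87, SE 0.22, adjusted p = 0.00640, limma). Relative to the pan-macrophage genes, Tfeb (0.13), Mitf (0.12) and Tfec (-0.32) did not pass. Tfe3 (0.39, adjusted p = 0.000898) and Flcn (0.45, adjusted p = 0.000735, limma) were higher on that scale.

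Relatives of Cd9, Cd63 and Lgals3 moved in both directions. Of 24 other tetraspanin genes, 22 were measured, and 6 fell, 10 rose and 6 did not pass, with a median of 0.20. The leukocyte tetraspanins Cd37 and Cd53 fell by 0.69 and 0.62, and Tspan4, a component of migrasomes, by 0.31, whereas Tspan12 rose by 0.89 (SE 0.08, adjusted p = 2.67e-05, limma) and Tspan18 by 0.84 (SE 0.10, adjusted p = 7.67e-05, limma). Of 8 other galectin genes and the galectin-3 binding protein, 7 were measured, and 1 fell, 3 rose and 3 did not pass, with a median of 0.12. Lgals12, the galectin of adipocyte lipid droplets, rose by 0.77 (SE 0.11, adjusted p = 0.000177, limma), and Lgals3bp, which encodes the galectin-3 binding protein, rose by 0.41 (SE 0.08, adjusted p = 0.00115, limma). Lgals7 fell by 0.72 (adjusted p = 0.0240) at a mean of 2.63 log2 CPM in controls, a call lost without HFD mouse 2, 3 or 4, where the adjusted p for Lgals7 was 0.0520, 0.0685 and 0.0567.

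Among fusion and osteoclast genes, 20 of 23 were measured, and 12 fell, 2 rose and 6 did not pass, with a median of -0.30. The collagen-degrading protease Ctsk fell by 0.88 (SE 0.09, adjusted p = 3.50e-05, limma), the hyaluronan and osteopontin receptor Cd44 by 0.83 and the metalloprotease Adam8 by 0.67, each with no overlap between groups. The genes that rose were Acp5, tartrate-resistant acid phosphatase and a marker of osteoclasts (0.38, SE 0.08, adjusted p = 0.00235), and the metalloprotease Adam9 (0.19, SE 0.06, adjusted p = 0.0260, limma). For Adam9 the call was lost without HFD mouse 4 or 5 or IMC-treated mouse 1, 4 or 5, with adjusted p-values between 0.0511 and 0.0637. The fall of Nfatc1, the transcription factor of osteoclast formation, was lost without HFD mouse 1 or 4 (adjusted p = 0.0595 and 0.0590, limma). Relative to the pan-macrophage genes, Ctsk (-0.33, adjusted p = 0.0130) and Cd44 (-0.28, adjusted p = 0.0314, limma) were lower, as Dcstamp was. Adam8 (-0.12) did not pass on that scale, and Acp5 (0.93) and Adam9 (0.74) were higher. The changes among these genes thus did not all follow that of Dcstamp.

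Osteopontin receptors and the partners or relatives of Itgax were all measured, and 8 of 13 fell, 1 rose and 4 did not pass, with a median of -0.42. Besides Cd44 and Itgb2, Itga5, a fibronectin receptor chain, fell by 0.44 (SE 0.09, adjusted p = 0.00167, limma), and Itgam, which encodes CD11b, by 0.63 (SE 0.16, adjusted p = 0.00751, limma). The gene that rose was Itgad, which encodes CD11d, another chain that pairs with Itgb2. It went from 5.90 ± 0.27 log2 CPM in controls (SD, n = 5) to 6.96 ± 0.12 in IMC-treated mice (SD, n = 6), a rise of 1.06 with no overlap (SE 0.10, adjusted p = 3.49e-05, limma), while Itgax and Itgam fell.

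Myeloid marker lists differed in how many of their genes fell or rose. In the pan-macrophage list, Adgre1, the classical mouse macrophage surface marker, fell by 0.58 (SE 0.14, adjusted p = 0.00593, limma), Cd68 by 0.61 (SE 0.10, adjusted p = 0.000492, limma) and Csf1r, the receptor for macrophage colony-stimulating factor, by 0.32 (SE 0.09, adjusted p = 0.0167, limma). Of 9 tissue-resident macrophage markers, 8 were measured, and 1 fell, 2 rose and 5 did not pass, with a median of 0.05 and summed levels of 902 to 1175 CPM in controls and 755 to 968 CPM in IMC-treated mice. Among those that did not pass, Mrc1 passed as lower without HFD mouse 2 (adjusted p = 0.0484) or IMC-treated mouse 4 (adjusted p = 0.0443), and Lyve1 as higher without HFD mouse 2 (adjusted p = 0.0232, limma). Folr2, a folate receptor, fell by 0.61, whereas the lectin Mgl2 rose by 1.09 (SE 0.20, adjusted p = 0.000929, limma) and Cbr2 by 0.55 (SE 0.13, adjusted p = 0.00473, limma). Mgl2 has a close paralogue, Clec10a, so its reads may be shared. Of 8 dendritic cell markers, which bear on Itgax, 7 were measured, and 3 fell, 1 rose and 3 did not pass, with a median of -0.13 and summed levels of 32.9 to 41.6 CPM in controls and 31.3 to 35.9 CPM in IMC-treated mice. The defining markers Zbtb46 (0.03, SE 0.09, adjusted p = 0.841) and Flt3 (-0.13, SE 0.14, adjusted p = 0.464, limma) did not pass, while Ccr7 fell by 0.74 and Cd209a rose by 0.81. The fall of Batf3, a dendritic cell transcription factor, was lost without HFD mouse 4 (adjusted p = 0.0560, limma). The part of dendritic cells in the fall of Itgax was not tested.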

How the data were processed

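RNA sequencing libraries from 11 mice were grouped by the treatment named in their labels. Directional libraries were trimmed with Trim Galore, checked with FastQC and aligned with STAR to mm10, per the submitters' processing notes, and the authors scaled the counts by the upper quartile with edgeR after removing low transcripts. The authors deposited log2 CPM values per gene and mouse, which were used as given. The columns of the authors' own comparison (fold change, mean level, likelihood ratio, p-value and FDR) were not used. In every mouse 100% of the values could be turned back into whole reads within 0.02 reads, which gave the depth and the alternative scalings.

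Because the values are on a log scale, limma 3.58.1 in R 4.3.3 was fitted with a trend to all 12787 genes, with group as the only factor, Benjamini-Hochberg adjustment and a threshold of 0.05. The same fit was repeated after subtracting each mouse's mean of 14 pan-macrophage genes. Two-sided exact permutation tests over the mice were run on marker scores. The limma steps were tested on simulated data. Alternatives were total-count and median-of-ratios scaling, an added constant of 2 reads, limma voom on the recovered reads, a robust trend, a minimum mean of 2 log2 CPM and leaving out each mouse in turn. Coordinates and upstream sequences came from RefSeq GRCm38.p6 and transcript lengths from GENCODE (longest protein-coding transcript, or the longest of any kind where there was none).

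The genes, lists and tests were chosen with earlier results of these data known. Named were the 9 genes, the 3 genes with the smallest p and any called gene of opposite direction in a list, defining markers, and the 3 most similar genes, except that 1 gene is not reported here. Further genes, such as Mmp12, Lipa, Apoe, Tfec, Cd53, Tspan4, Klrk1 and Itgam, were named after their values were seen. Python 3.11.15, numpy 2.4.6, pandas 2.3.3 and matplotlib 3.10.9 were used.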

Additional observations from a re-analysis of the deposited data

Results flagged for a closer look

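Of 178 groups of mice for named genes and scores, 5 held a mouse whose gap to its nearest neighbour took an unusually large share of the group's range, and chance alone gives about 1 in 20. None of these was in the 8 macrophage and fusion genes. The share was 0.735 for the lowest HFD mouse in Spi1, a pan-macrophage marker. Among mast cell markers it was 0.724 for the highest HFD mouse in Cma1 and 0.824 in Cpa3. It was 0.729 for the lowest IMC-treated mouse in Dcn, a stromal marker, and 0.859 for the highest HFD mouse in Upk3b, a mesothelial marker.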

How the results depend on the processing

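All 8 genes stayed lower, with an adjusted p under 0.05 (limma), in each of the 17 alternatives: both other scalings, the larger added constant, voom, the robust trend, the filter at a mean of 2 log2 CPM, and each of the 11 mice left out. The number of genes lower over the whole table ran from 2113 to 3261. The log2 fold change of Dcstamp ran from -1.29 to -1.14, that of Trem2 from -0.86 to -0.73 and that of Itgax from -0.75 to -0.62. Relative to the pan-macrophage genes, 2 of the 8 genes passed, and this number ran from 1 to 6 when single mice were left out. It was 4 with Adgre1, Cd68 and Csf1r alone as the reference, where Gpnmb (adjusted p = 0.0271) and Tyrobp (adjusted p = 0.0260) also passed, and Tyrobp also passed under the filter at a mean of 2 log2 CPM (adjusted p = 0.0489). Dcstamp passed in all 18 alternatives of that comparison, between -0.74 and -0.61. Over the whole table, 42 to 88 genes were lower in these 18 alternatives. Of 79 named genes of the lists, 68 kept every call. No direction among the called results was reversed. No paired analysis was made because the labels give no pairing of mice between the groups, and the mouse numbers used here were counted within each group. Dcstamp rested on 237 to 830 reads per mouse, the fewest of the 8 genes.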

Other observations

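Markers of cells other than macrophages and adipocytes were measured in the same tissue. All 4 mast cell markers fell, with a median log2 fold change of -1.38 and summed levels of 331 to 745 CPM in controls and 111 to 209 CPM in IMC-treated mice. Of 4 stromal markers, 3 fell and 1 did not pass, with a median of -0.29. The fall of Col1a2 was lost under median-of-ratios scaling (adjusted p = 0.0554) and without HFD mouse 1, 2, 3 or 4 or IMC-treated mouse 2, 3 or 6 (adjusted p-values between 0.0628 and 0.105, limma), and that of Dcn without HFD mouse 3 (adjusted p = 0.0643). Of 3 endothelial markers, 1 rose and 2 did not pass, of which Kdr passed as higher without HFD mouse 2 (adjusted p = 0.0135) or IMC-treated mouse 1 (adjusted p = 0.0429) or 4 (adjusted p = 0.0402, limma). None of the 2 measured of 7 T and NK cell markers, the 2 measured of 4 neutrophil markers and the 2 measured of 3 mesothelial markers passed with all 11 mice. The neutrophil marker S100a8 passed as higher without HFD mouse 5 (adjusted p = 0.0118) or IMC-treated mouse 3 (adjusted p = 0.0313) or 5 (adjusted p = 0.0337, limma). None of 4 B cell markers was measured.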
